A study of Canis lupus familiaris with 32 samples.

Results

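The genes described here are grouped as extracellular matrix outside bone and cartilage, a name that does not exclude expression in those tissues. They include the collagens other than types I and II, the laminins, fibronectin, fibrillin and the fibulins. The small proteoglycans BGN and DCN and the ADAMTS, MMP, TIMP and LOX families complete the group. All were taken by symbol from the annotation of the array, with COL1A1, COL1A2 and COL2A1 set aside as the collagens of bone and cartilage. This gave 28 of the 5246 genes with a symbol, read by 62 of 22176 probes. LUM, POSTN, TNC and VCAN and every THBS gene were also looked for, and 0 named probes carried those symbols. Expression was measured on 2-color cDNA arrays in 32 osteosarcomas of dogs, with 1 array per tumor and a pool of amplified RNA of all 32 tumors as the common reference. The dogs fell into 16 short survivors (SS, median 66 days after diagnosis) and 16 long survivors (LS, median 350 days). The tumors were taken at surgery from dogs that had had no earlier therapy, and pathology was read on an adjacent piece. In each survival group the tumor carried Cy5 on 8 arrays and Cy3 on 8. A fibroblastic component was recorded in the pathology of 16 tumors and not in the other 16, and a chondroblastic component in 8 and not in 24. Tumors are named by their number, 1 to 16 in SS and 17 to 32 in LS.

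The extracellular matrix is the protein network that cells secrete around themselves. Fibrillar collagens of types III and V form thin fibers with type I collagen, type IV collagen and the laminins build the basement membrane under endothelium and epithelium, and fibronectin, fibrillin and fibulins link cells and fibers. ADAMTS and MMP enzymes cut or mature these proteins, LOX enzymes cross-link them, and TIMPs inhibit the metalloproteases. Osteosarcoma is defined by bone matrix made by the tumor cells, while vessels and stroma within the tumor carry much of the other matrix.

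Each value is a log2 ratio of tumor over pool, so 0 is the level of the pool and levels of different genes cannot be set against each other. Probes of a gene were averaged, which left 19728 rows with the unnamed probes. Array medians lay between -0.03 and 0.02, and the SD of the ratios within an array between 0.474 and 0.762. A dye effect remained in the deposited ratios. Between the orientations 65.6% of all rows differed at an adjusted p under 0.10 (limma), and so did 7 of the 28 matrix genes. COL14A1, BGN and TIMP2 read higher with the tumor in Cy5, by 0.33, 0.49 and 0.48 on the log2 scale. LAMA3, FBLN1, ADAMTS6 and ADAMTS12 read lower with the tumor in Cy5, with differences of -0.40, -0.61, -0.69 and -0.79. The FBLN1 value is the mean of 2 probes that went opposite ways, at -1.84 and 0.62. Both dyes were equally frequent in SS and LS, and within-orientation values are given below.

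Of these genes 11 had 1 probe and 17 had several. The probes of a gene ran together for COL3A1, DCN, COL5A2, FBN1 and TIMP2, with correlations across tumors of 0.93 or more between every pair. They disagreed for others. Of the 5 probes of COL4A1, 4 each had a highest correlation with another of them of 0.959 to 0.993, and 1 correlated with those 4 between -0.53 and -0.51. A pair of probes correlated below 0 for LAMB1, COL27A1 and TIMP3 as well, so the means of these genes mix unlike readings. In LAMA4, with 6 probes, the lowest correlation between a pair was 0.09 and the median 0.76. In FN1 the lowest was 0.30, and in FBLN1 and ADAMTS6, with 2 probes each, it was 0.23.

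The matrix genes varied widely between tumors. The SD between tumors within an orientation had a median of 0.569 over the 28 genes, against 0.270 over all rows. Of the 28 genes, 13 lay above the 90th percentile of all rows (SD 0.596), a place that 10% of all rows hold. DCN, which binds collagen fibers, had the largest SD, 1.47, followed by COL3A1 (1.34), COL5A2 (1.09), LAMB2 (0.933), COL4A2 (0.916) and FBN1 (0.915). The smallest were those of COL27A1 (0.154), ADAMTS12 (0.255) and ADAMTS6 (0.259). The COL27A1 value is that of a mean of 3 unlike probes, which had SDs of 0.202, 0.337 and 0.255. The 2 ADAMTS6 probes had SDs of 0.249 and 0.399.

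The comparison of SS with LS asks which transcripts differ with the time the dogs lived. Limma called 0% of the 19728 rows at an adjusted p under 0.10, and so 0 of the 28 matrix genes. At an unadjusted p under 0.05 there were 6.89% of all rows and 1 matrix gene, COL5A1. The smallest adjusted p among the matrix genes was 0.713. By the sign of the mean alone, 21 of the 28 were lower in SS, against 50.8% of all rows and 43.4% of genes with a symbol. The median difference was -0.19, against -0.003 over all rows and 0.022 over genes with a symbol. The direction of the Cy3 arrays rests on the stated switching of swapped dyes. With the sign of the Cy3 arrays turned, 23 were lower in SS and 5 higher, with a median of -0.11 against 0.022 over all rows. The differences were then -0.21 for COL3A1, -0.064 for COL5A1, -0.090 for MMP23 and -0.37 for FBN1. These genes varied together across tumors, as the correlations given further on show, so the 21 are not separate observations. By role, 3 of 4 fibril-forming collagens, both fibril-associated collagens, 6 of 8 basement membrane genes, BGN and DCN, all 4 of the genes for fibronectin, fibrillin and fibulins, 3 of 5 enzymes and 1 of 3 TIMPs were lower in SS. In whole tumors, fewer cells of a type and less RNA per cell cannot be told apart.

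COL3A1, the collagen of thin reticular fibers, had ratios from -3.27 (tumor 1) to 1.42 (tumor 7) with a median of -0.88 in SS tumors, and from -2.95 (tumor 22) to 2.45 (tumor 32) with a median of 0.10 in LS tumors. It lay below the LS median in 12 of 16 SS tumors, and the groups overlapped over nearly their whole range. The means were -0.93 ± 1.37 in SS tumors and -0.02 ± 1.23 in LS tumors (SD, n = 16 each), a difference of -0.90 or 1.87-fold lower in SS (95% confidence interval -1.81 to 0.003, adjusted p = 0.723, limma). Both COL3A1 probes were lower in SS, by differences of -0.75 and -1.06. Leaving out LS tumor 22 moved the difference to -1.10 and the unadjusted p to 0.0129, and leaving out LS tumor 32 moved it to -0.74. The adjusted p stayed between 0.467 and 0.879 with each tumor left out in turn.

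COL5A1, a chain of the type V collagen that starts and limits fiber growth, ran from -1.25 (tumor 4) to 0.67 (tumor 16) with a median of -0.10 in SS tumors, and from -1.0 (tumor 22) to 1.01 (tumor 28) with a median of 0.11 in LS tumors. SS tumors 4, 2 and 13 lay below every LS tumor, and 5 LS tumors lay above every SS tumor. The difference was -0.41 (95% confidence interval -0.81 to -0.004, unadjusted p = 0.0479, adjusted p = 0.713, limma). Its partner chain COL5A2 ran from -3.28 (tumor 12) to 1.39 (tumor 16), median -0.49, in SS tumors and from -3.14 (tumor 22) to 1.38 (tumor 32), median 0.27, in LS tumors. Each group thus held 1 tumor near -3 and tumors above 1. The COL5A2 difference of -0.49 had an interval of -1.25 to 0.27, and all 5 probes lay in the same direction, between -0.62 and -0.37.

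**Figure D1:**
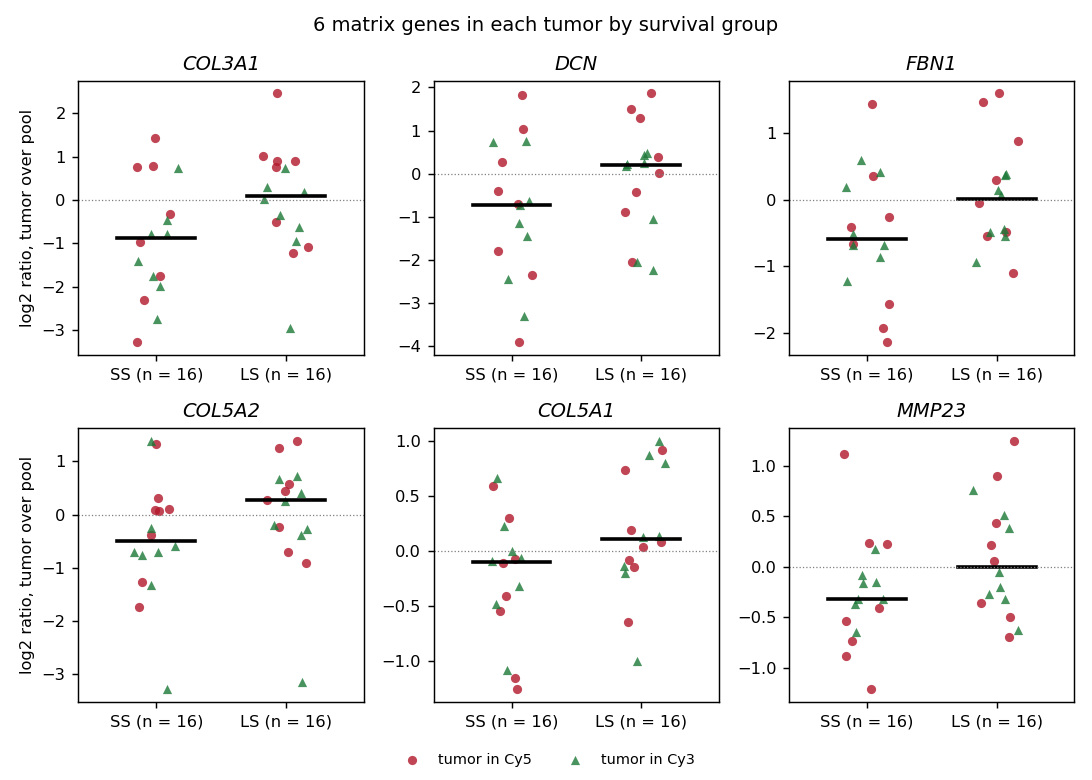
Log2 ratio of tumor over pool (y axis) of COL3A1, DCN, FBN1, COL5A2, COL5A1 and MMP23 in each of 16 SS and 16 LS tumors; points are tumors, circles with the tumor in Cy5 and triangles in Cy3, bars are medians. The SS median is lower in every panel, at -0.88 in SS against 0.10 in LS for COL3A1, and the groups overlap in all 6.

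DCN had ratios from -3.90 (tumor 1) to 1.82 (tumor 7), median -0.72, in SS tumors and from -2.24 (tumor 26) to 1.86 (tumor 29), median 0.20, in LS tumors. Of the SS tumors 4 lay below the whole LS range, and the tops of the groups were alike. The difference of -0.76 had an interval of -1.76 to 0.24 (adjusted p = 0.799, limma). FBN1, the fibrillin of microfibrils, ran from -2.14 (tumor 1) to 1.43 (tumor 7), median -0.59, in SS tumors and from -1.10 (tumor 20) to 1.60 (tumor 32), median 0.01, in LS tumors. Here too 4 SS tumors lay below every LS tumor. The FBN1 difference was -0.53 (95% confidence interval -1.14 to 0.07, adjusted p = 0.768, limma).

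Among the enzymes, MMP23, a membrane-bound metalloprotease, ran from -1.22 (tumor 2) to 1.12 (tumor 7), median -0.32, in SS tumors and from -0.70 (tumor 18) to 1.25 (tumor 32), median close to 0, in LS tumors. It exceeded 0 in 4 SS and 8 LS tumors, and the difference was -0.35 (95% confidence interval -0.74 to 0.04, adjusted p = 0.761, limma). ADAMTS2, which trims the ends of fibrillar procollagens, ran from -0.68 (tumor 4) to 0.47 (tumor 6), median -0.16, in SS tumors and from -0.54 (tumor 22) to 0.87 (tumor 32), median 0.05, in LS tumors. The ADAMTS2 difference of -0.20 had an interval of -0.45 to 0.05. LAMC1, the laminin chain shared by most laminins, ran from -0.87 (tumor 2) to 1.34 (tumor 11), median -0.18, in SS tumors and from -0.52 (tumor 22) to 0.87 (tumor 21), median 0.04, in LS tumors. Of the SS tumors 5 lay below every LS tumor, while SS tumor 11 lay above all others, and the difference was -0.28 (95% confidence interval -0.64 to 0.07).

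Of the 7 genes with a higher mean in SS, TIMP3, the TIMP that binds to the matrix, had the largest difference, 0.17 (95% confidence interval -0.13 to 0.47, adjusted p = 0.852, limma). Its ratios ran from -0.55 (tumor 15) to 0.87 (tumor 10), median 0.08, in SS tumors and from -0.63 (tumor 30) to 1.04 (tumor 26), median -0.15, in LS tumors. COL27A1, a minor fibrillar collagen, ran from -0.26 (tumor 11) to 0.42 (tumor 4), median 0.05, in SS tumors. In LS tumors it ran from -0.22 (tumor 28) to 0.12 (tumor 31), median -0.05. The COL27A1 difference of 0.09 had an interval of -0.02 to 0.21. By probe it was 0.27, 0.025 and -0.016, so 1 of the 3 probes held most of it. LAMA3, an epithelial laminin chain, ran from -0.73 to 1.67, median -0.20, in SS tumors and from -0.71 to 1.00, median -0.19, in LS tumors, so the medians were alike. Its difference was 0.09 (-0.30 to 0.47), and -0.027 without SS tumor 14. TIMP1, a soluble inhibitor of metalloproteases, ran from -0.99 to 2.25, median -0.42, in SS tumors and from -1.69 to 1.95, median -0.58, in LS tumors. Only SS tumor 1 and LS tumor 19 exceeded 1, and the TIMP1 difference was 0.08 (95% confidence interval -0.48 to 0.63). LAMB1, a laminin chain of most tissues, ran from -1.78 to 0.41, median -0.78, in SS tumors and from -1.76 to 0.11, median -0.87, in LS tumors. ADAMTS12, a matrix metalloprotease, ran from -0.50 to 0.73, median -0.06, in SS tumors and from -0.79 to 1.01, median -0.04, in LS tumors. The LAMB1 difference was 0.05 (-0.33 to 0.44) and that of ADAMTS12 0.02 (-0.32 to 0.36), and LOXL3, a lysyl oxidase of the cross-linking family, was at 0.01 (-0.25 to 0.27). By probe, LAMB1 was at 0.51, -0.27 and -0.07.

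The remaining genes had differences between -0.37 and -0.01, with intervals that held 0. These were the fibril-associated COL12A1 (-0.15) and COL14A1 (-0.12), and the basement membrane genes COL4A1 (-0.29), COL4A2 (-0.37), LAMA1 (-0.10), LAMA4 (-0.12) and LAMB2 (-0.21). BGN, a small proteoglycan like DCN, was at -0.26. FN1 was at -0.25, FBLN1 at -0.18, FBLN2 at -0.25, ADAMTS6 at -0.01 and TIMP2 at -0.15. For FN1, the cell-adhesive fibronectin, 5 LS tumors lay above every SS tumor.

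Within the orientations the pattern differed. With the tumor in Cy5, 24 of the 28 genes were lower in SS, against 46% of all rows and 47.7% of genes with a symbol. The median difference over the matrix genes was -0.33. With the tumor in Cy3, 15 were lower, against 56.5% of all rows and 43.3% of genes with a symbol, and the median was -0.02. On both orientations alike 14 genes were lower in SS, against 24.8% of all rows, among them COL3A1 (-1.11 in Cy5 and -0.70 in Cy3), COL5A1 (-0.47 and -0.34), COL5A2 (-0.44 and -0.54), DCN (-0.96 and -0.55) and MMP23 (-0.44 and -0.26). The 8 basement membrane genes were all lower in SS with the tumor in Cy5, and 6 of them were higher with the tumor in Cy3. COL4A2 differed by -0.90 in Cy5 and 0.15 in Cy3, a gap of -1.05 (95% confidence interval -2.28 to 0.18, adjusted p = 0.333 for the interaction, limma), and COL4A1 by -0.72 and 0.14.

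Within the Cy5-labeled tumors 2 of the 28 genes passed an adjusted p under 0.10, against 6.34% of all rows, and within the Cy3-labeled tumors 0, against 10.2%. The main comparison held no dye term. With orientation as a block 0 passed, against 0.35% of all rows. The smallest adjusted p of the 28 was then 0.345 (COL3A1, limma). An unadjusted p under 0.05 was reached by 2 of the 28, and by 2788 of the 19728 rows. The 2 in Cy5 were LAMC1 and ADAMTS12. LAMC1 had ratios from -0.87 to 0.12, median -0.55, in the 8 SS tumors and from -0.39 to 0.77, median 0.18, in the 8 LS tumors. LAMC1 fell by 0.66 there (adjusted p = 0.0619, limma), and in Cy3 the difference was 0.09. ADAMTS12 had ratios from -0.50 to -0.10, median -0.15, in the 8 SS tumors in Cy5 and from -0.79 to -0.41, median -0.53, in the 8 LS tumors in Cy5. In Cy3 it had ratios from -0.03 to 0.73, median 0.21, in the SS tumors and from 0.33 to 1.01, median 0.54, in the LS tumors. The ADAMTS12 difference was thus 0.36 in Cy5 and -0.31 in Cy3, and every Cy5 value lay below every Cy3 value. It was the 1 matrix gene whose difference itself differed between the orientations (interaction 0.67, adjusted p = 0.00212, limma), a call made for 11.6% of all rows.

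**Figure D2:**
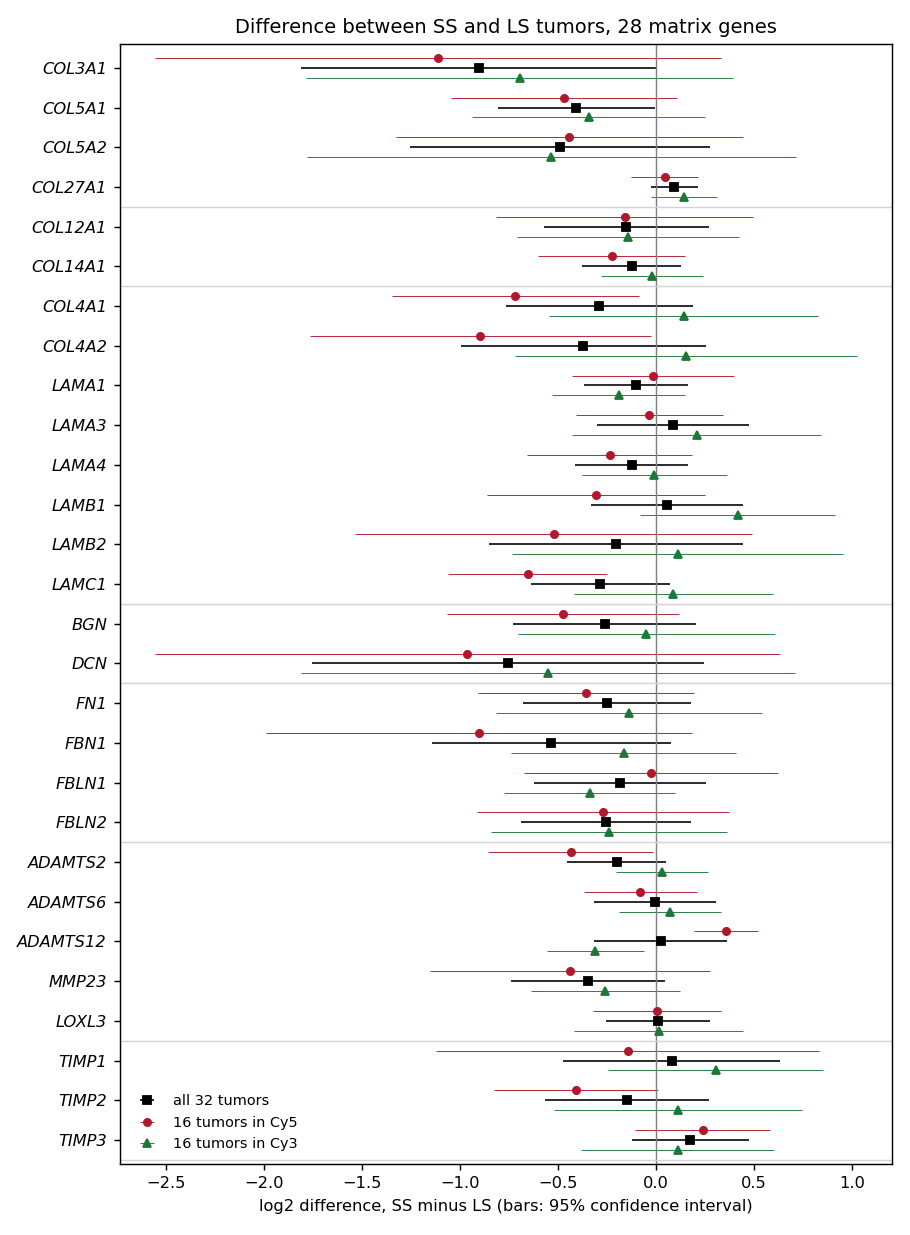
Difference of SS minus LS (x axis, log2 units, bars are 95% confidence intervals) for the 28 matrix genes (rows, grouped by role from fibril-forming collagens to TIMPs): squares are all 32 tumors, circles the 16 tumors in Cy5, triangles the 16 in Cy3. Squares of 21 genes lie left of 0, and the basement membrane genes lie left of 0 in Cy5 while 6 of 8 lie right of 0 in Cy3.

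The histological comparison asks whether these genes followed the fibroblastic or chondroblastic component named in the pathology. The fibroblastic component was present in 7 SS and 9 LS tumors and in 8 tumors of each orientation, and the model held the chondroblastic component and the orientation as terms. Limma called 0% of all rows and 0 matrix genes. At an unadjusted p under 0.05 there were 7.79% of all rows and 1 matrix gene, TIMP1. With the component 18 of 28 were higher, against 48.6% of all rows. The other 10 were lower, against 43.5% of genes with a symbol. The median difference over the 28 was 0.07. Without SS tumor 2, 14 were higher and 14 lower (median 0.001), and with each tumor left out in turn the median lay between 0.001 and 0.12, the highest without SS tumor 7. The split by orientation went opposite ways. In Cy5 8 of 28 were higher with the component (46.2% of all rows, median -0.11), and in Cy3 24 were (54.5% of all rows, median 0.26). Of genes with a symbol, 44.7% were lower in Cy5 and 41.0% in Cy3, against 20 and 4 of the 28.

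TIMP1 ran from -0.85 (tumor 27) to 2.25 (tumor 1), median -0.34, in tumors with a fibroblastic component and from -1.69 (tumor 22) to 0.58 (tumor 10), median -0.62, in those without. Tumors 1, 19 and 31, all fibroblastic, were above all tumors without the component, and the rest overlapped. The difference was 0.63 or 1.54-fold higher with the component (95% confidence interval 0.13 to 1.13, unadjusted p = 0.0157, adjusted p = 0.471, limma), at 0.92 in Cy5 and 0.38 in Cy3. COL4A1, a chain of basement membrane collagen, ran from -0.72 to 1.46, median -0.15, with the component and from -1.39 to 0.84, median -0.62, without, a difference of 0.41 (-0.07 to 0.89). COL4A2 ran from -1.03 to 1.91, median -0.35, with the component and from -1.94 to 1.23, median -0.59, without, a difference of 0.37 (-0.28 to 1.02), and 0.23 without tumor 11. In 15 of 16 fibroblastic tumors COL4A1 lay above the median of the tumors without the component.

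COL5A2 ran from -1.73 to 1.39, median 0.08, in fibroblastic tumors and from -3.28 to 1.38, median -0.33, in the others, a difference of 0.59 (-0.16 to 1.34). Both tumors near -3, 12 and 22, lacked the component. Its difference was -0.27 in Cy5 and 1.64 in Cy3, so the dyes did not show 1 direction. LAMA3 ran from -0.73 to 1.67, median -0.21, in fibroblastic tumors and from -0.71 to 0.41, median -0.18, in the others, a difference of 0.22 (-0.14 to 0.58). Its 4 highest tumors, 14, 9, 24 and 17, were all fibroblastic, and without tumor 14 the difference was 0.13. FN1 ran from -0.78 to 0.85, median 0.02, in fibroblastic tumors and from -1.80 to 0.90, median -0.02, in the others (difference 0.27, -0.16 to 0.69, and 0.16 without tumor 22).

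On the lower side, COL14A1, which coats collagen fibers, ran from -0.38 to 0.17, median -0.05, in fibroblastic tumors and from -0.59 to 1.37, median 0.02, in the others, a difference of -0.20 (-0.42 to 0.03). Its high values, in tumors 29, 7 and 32, were all in tumors without the component, and without tumor 29 the difference was -0.11. DCN ran from -3.90 to 1.29, median -0.20, in fibroblastic tumors and from -2.43 to 1.86, median -0.52, in the others, so that its mean difference of -0.28 (-1.32 to 0.76) and its medians pointed opposite ways. The differences of ADAMTS12, LOXL3, LAMB1 and LAMA4 lay between -0.10 and -0.06, with intervals that held 0, and single tumors moved LOXL3 to -0.020 (without tumor 12), LAMB1 to -0.0093 (without tumor 2) and LAMA4 to -0.012 (without tumor 7). ADAMTS12 ran from -0.79 to 1.01, median -0.07, in fibroblastic tumors and from -0.56 to 0.67, median -0.06, in the others. LOXL3 ran from -0.60 to 0.52, median -0.08, in fibroblastic tumors and from -0.75 to 0.92, median -0.12, in the others. The laminin chains overlapped as widely. LAMB1 ran from -1.78 to 0.31, median -0.87, in fibroblastic tumors and from -1.76 to 0.41, median -0.66, in the others, and LAMA4 from -0.56 to 0.83, median -0.16, in fibroblastic tumors and from -0.84 to 0.71, median -0.04, in the others. COL3A1, the reticular fiber collagen, had almost the same median in fibroblastic tumors (-0.48) as in the others (-0.48).

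The chondroblastic component was present in 4 SS and 4 LS tumors, 5 in Cy5 and 3 in Cy3. The cartilage markers with probes, COL2A1 and COMP, did not have a higher mean with this label. Their differences were -0.13 and -0.24 (standard errors 0.456 and 0.547, adjusted p = 0.999 each, limma). The median of their mean was -0.97 in chondroblastic tumors and -1.13 in the others. These 2 markers of 14 listed were too imprecise to test the label. Limma called 0% of all rows and 0 matrix genes, and at an unadjusted p under 0.05 there were 2.64% of all rows and 0 matrix genes. With the component 20 of 28 were higher, against 46.7% of all rows. The other 8 were lower, against 45.8% of genes with a symbol. The median difference over the 28 was 0.12. The median was 0.045 without LS tumor 32 (17 higher) and 0.20 without SS tumor 1 (22 higher). In Cy5 19 were higher (48.5% of all rows) and in Cy3 20 (49.5% of all rows). Of genes with a symbol, 50.7% were lower in Cy5 and 41.8% in Cy3, against 9 and 8 of the 28.

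TIMP1 ran from -0.79 to 2.25, median -0.37, in the 8 chondroblastic tumors and from -1.69 to 1.95, median -0.52, in the other 24, and differed by 0.56 (95% confidence interval -0.02 to 1.15, unadjusted p = 0.0589, adjusted p = 0.999, limma). Without tumor 1 this was 0.29. LAMA4, the laminin chain of vessel walls, ran from -0.27 to 0.83, median 0.08, in chondroblastic tumors and from -0.84 to 0.66, median -0.16, in the others (0.28, -0.03 to 0.60). FN1 ran from -0.49 to 0.90, median 0.07, in chondroblastic tumors and from -1.80 to 0.85, median -0.03, in the others (0.35, -0.14 to 0.85). The 5 lowest tumors of either gene all lacked the component, and LAMA4 lay above the median of the others in 7 of the 8.

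COL4A1 differed by 0.33 (-0.23 to 0.88), and by 0.18 without tumor 31, with ratios of -1.12 to 1.21, median -0.22, in chondroblastic tumors and -1.39 to 1.46, median -0.28, in the others. COL12A1, which binds to collagen fibers, differed by 0.28 (-0.21 to 0.78), with ratios of -0.55 to 1.32, median -0.01, in chondroblastic tumors and -1.16 to 1.15, median -0.24, in the others, and without tumor 32 its difference was 0.12. COL5A2 differed by 0.48 (-0.39 to 1.36), with ratios of -0.71 to 1.38, median 0.08, in chondroblastic tumors and -3.28 to 1.39, median -0.27, in the others, and without tumor 32 its difference was 0.31. The genes on the lower side were led in size by DCN, with ratios of -3.90 to 1.49, median -0.75, in chondroblastic tumors and -3.29 to 1.86, median -0.11, in the others. The DCN difference was -0.63 (-1.85 to 0.59), and -0.13 without tumor 1. COL14A1 (-0.13), LAMA3 (-0.19), LAMA1 (-0.14), FBLN2 (-0.14) and FBLN1 (-0.06) had intervals that held 0. Single tumors moved several of these: FBLN2 was at -0.013 without tumor 1, COL14A1 at -0.053 without tumor 29, LAMA1 at -0.081 without tumor 5 and FBLN1 at 0.028 without tumor 20. COL14A1 ran from -0.40 to 0.51, median -0.08, in chondroblastic tumors and from -0.59 to 1.37, median -0.03, in the others. LAMA3 ran from -0.66 to 0.37, median -0.36, in chondroblastic tumors and from -0.73 to 1.67, median -0.18, in the others, and LAMA1, the laminin chain of early epithelia, from -0.47 to 0.29, median -0.06, in chondroblastic tumors and from -0.62 to 0.69, median 0.15, in the others. For LAMA1 only 1 of the 8 lay above the median of the others. FBLN2 ran from -1.04 to 0.64, median -0.02, in chondroblastic tumors and from -1.27 to 1.16, median 0.08, in the others, and FBLN1 from -1.07 to 0.90, median -0.13, in chondroblastic tumors and from -1.42 to 1.02, median 0.07, in the others.

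**Figure D3:**
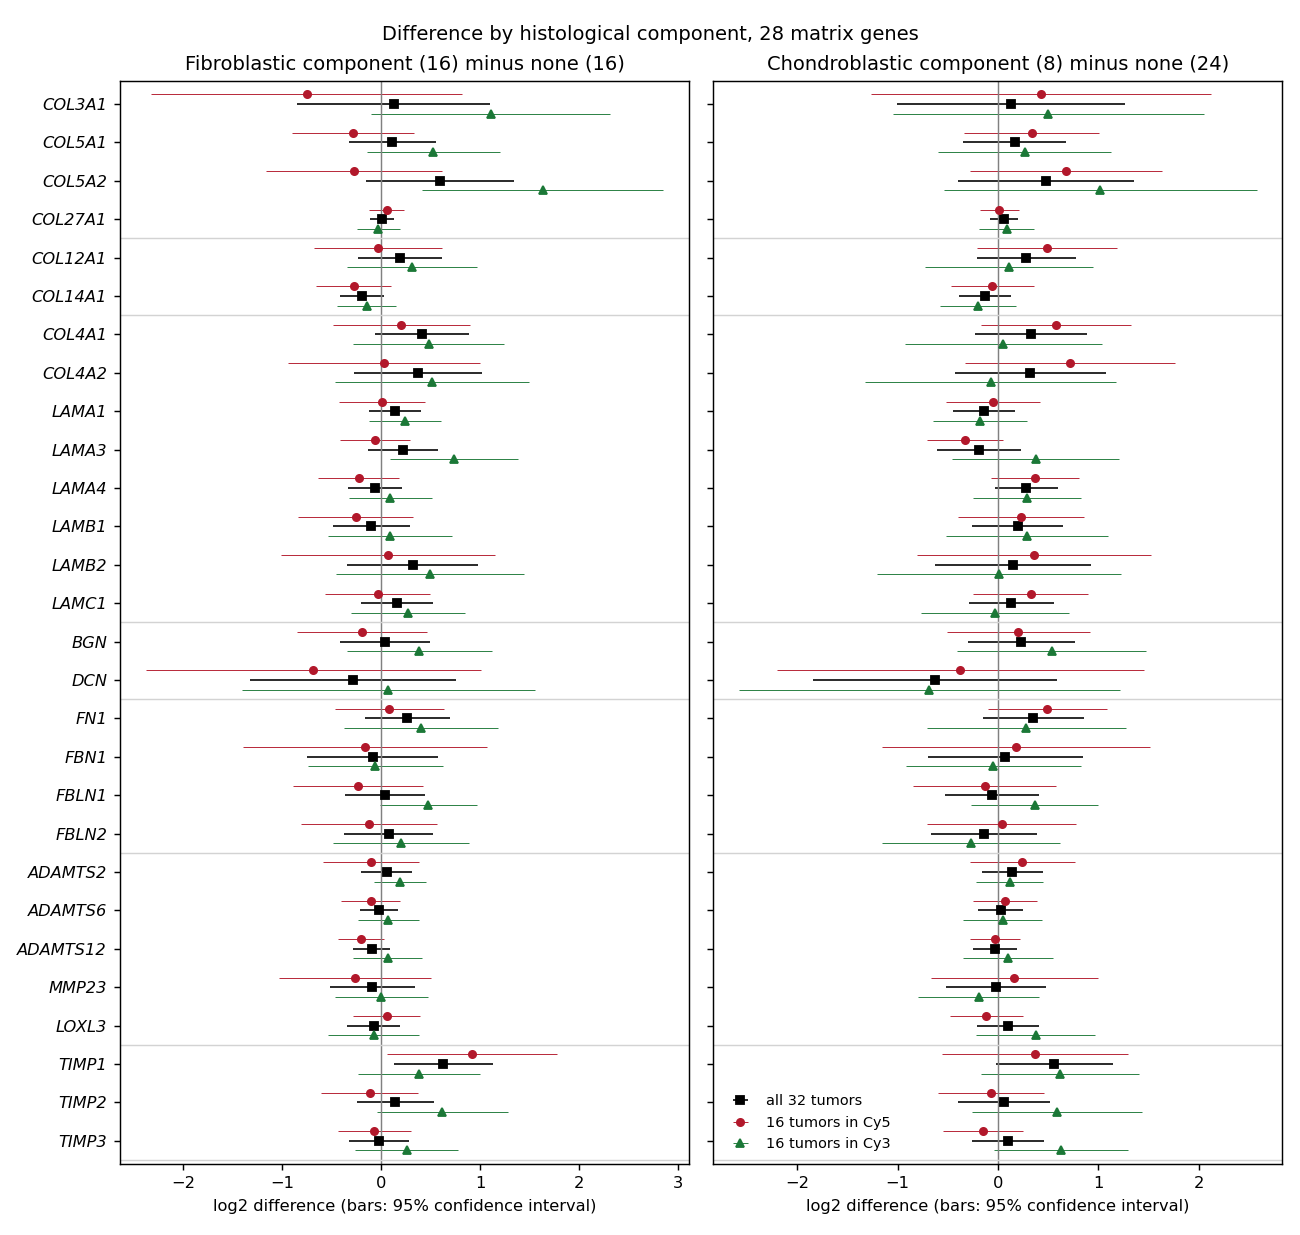
Difference of tumors with a component minus tumors without (x axes, log2 units, bars are 95% confidence intervals) for the 28 matrix genes (rows, grouped by role), fibroblastic on the left and chondroblastic on the right; squares are all 32 tumors, circles the 16 in Cy5, triangles the 16 in Cy3. For the fibroblastic component the circles of 8 genes and the triangles of 24 lie right of 0, and the TIMP1 square lies at 0.63.

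The matrix genes varied together across tumors more than named genes in general. After each gene was centered within its orientation, the median correlation over the 378 pairs of matrix genes was 0.26, against 0.004 over all pairs of the 5246 named genes, and 22.2% of the matrix pairs exceeded 0.5, against 1.79% of all pairs. Values of all pairs come from the same 32 arrays and share their labeling and hybridization. By a permutation test within the orientations (100000 resamples, two-sided, Benjamini-Hochberg adjustment over the 378 pairs), 141 pairs had an adjusted p under 0.10, 136 with a positive and 5 with a negative correlation. Within the Cy3-labeled tumors alone 51 pairs did, and within the Cy5-labeled tumors 113. The test was not run on pairs of other named genes, so these counts have no background share.

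The strongest pair was COL4A1 and COL4A2, the chains that join in type IV collagen and whose genes neighbor each other in the canine gene table (r = 0.97, rho = 0.94, n = 32, permutation p = 1e-05 for each, the smallest that the resamples can give, adjusted p = 0.000199). Without the 2 tumors farthest from the median of COL4A1, 11 and 31, r was 0.96. COL4A2 and LAMA4 followed (r = 0.81, rho = 0.73, permutation p = 1e-05 and 2e-05, adjusted p = 0.000199), at 0.73 without tumors 11 and 31. Among the laminin chains LAMA4, LAMB1 and LAMC1, which join in a laminin of vessel walls, correlated with each other at 0.52 to 0.72. The LAMB1 value is a mean of unlike probes. Its probe with the largest SD (1.33) correlated with the other 2 at -0.16 and 0.02. LAMA1, LAMA3 and LAMB2 correlated with other laminin chains at 0.16 or less.

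A further set held fibril collagens, DCN and MMP23. COL3A1 and DCN correlated at r = 0.79 (rho = 0.81, permutation p = 1e-05 for each, adjusted p = 0.000199), at 0.72 without tumors 1 and 32. COL5A1 and BGN had r = 0.78 (rho = 0.69, permutation p = 1e-05 and 5e-05, adjusted p = 0.000199), at 0.74 without tumors 4 and 13. DCN and MMP23 had r = 0.78 (rho = 0.79, permutation p = 1e-05 for each, adjusted p = 0.000199), at 0.77 without tumors 1 and 14. COL3A1 and COL5A1 had r = 0.78 (rho = 0.78, permutation p = 1e-05 for each, adjusted p = 0.000199), also 0.78 without tumors 1 and 32. COL3A1 and COL5A2, neighbors in the genome, had r = 0.70. Tumors high in one of these genes were mostly high in the others, in both survival groups.

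The lowest correlations were those of LAMA1 with LAMB2 (r = -0.42, rho = -0.37, permutation p = 0.0211 and 0.0427, adjusted p = 0.0639), FBN1 with LAMB2 (r = -0.42, rho = -0.37, permutation p = 0.0288 and 0.0428, adjusted p = 0.08) and COL27A1 with LAMA4 (r = -0.40, rho = -0.29, permutation p = 0.0239 and 0.112, adjusted p = 0.0701). Without 2 tumors, LAMA1 with LAMB2 was at -0.26 and COL27A1 with LAMA4 at -0.17, the tumors left out being 4 and 13 for both, so neither held without them, while FBN1 with LAMB2 was at -0.47 without tumors 4 and 16. COL3A1 and FN1 each had 13 partners above 0.5. COL27A1, LAMA1, LAMA3, ADAMTS6, ADAMTS12, LOXL3, TIMP1 and TIMP3 had 0.

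**Figure D4:**
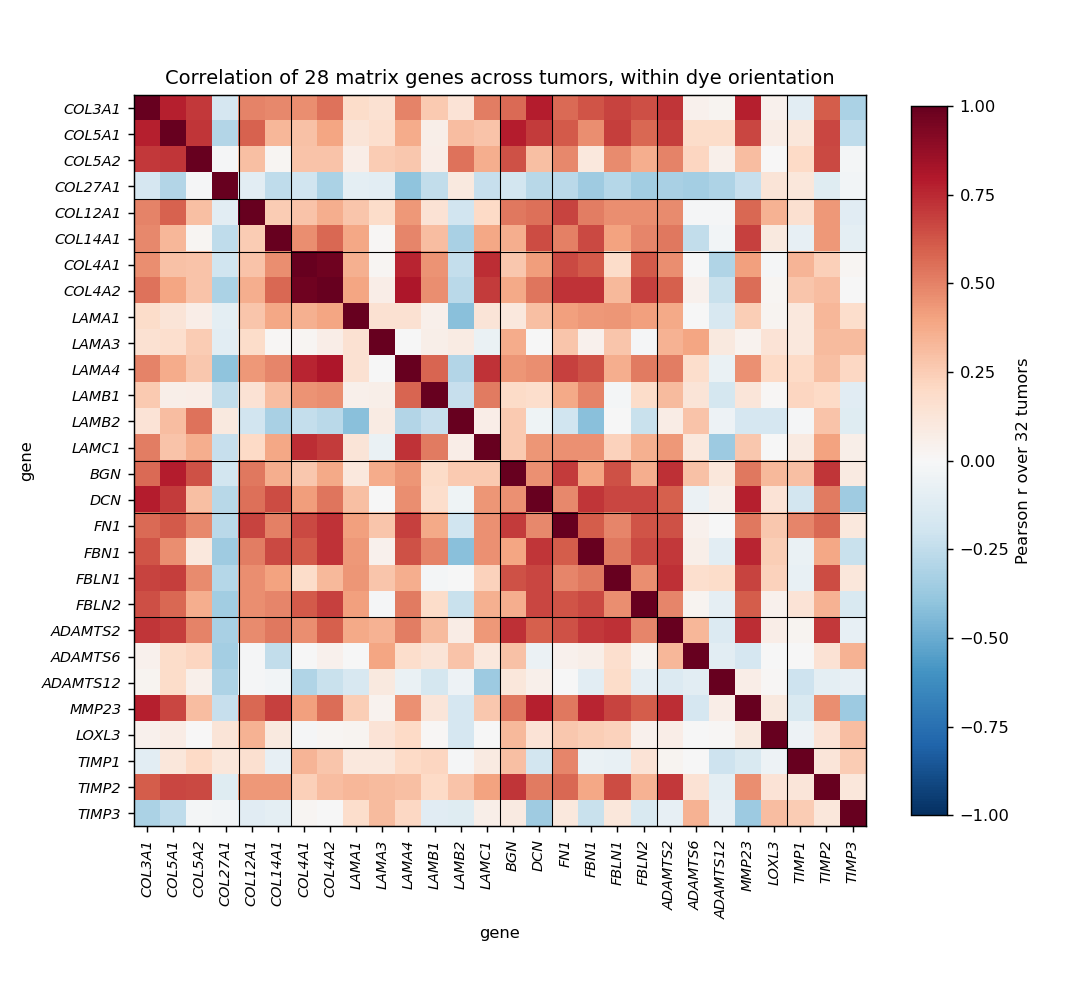
Pearson correlation over 32 tumors (color, from -1 to 1) between the 28 matrix genes (both axes, grouped by role), after centering each gene within its dye orientation. The pair of COL4A1 and COL4A2 stands at 0.97. COL27A1, ADAMTS12 and TIMP3 have pale or blue rows, with median correlations of -0.23, -0.06 and -0.02. The values of COL27A1 and TIMP3 are means of unlike probes.

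Markers of other cell types moved with some of these genes. The relations of the 28 genes with 7 marker lists and with COL1A2, the bone collagen set aside, were computed as 224 relations with the same permutation test, and adjusted p-values are over these. The mean of 5 endothelium markers (PECAM1, VWF, TEK, TIE1 and FLT1, of 12 listed) correlated with COL4A1 at r = 0.84 (rho = 0.83, permutation p = 1e-05 for each, adjusted p = 0.00028) and at 0.78 without the 2 tumors farthest from its median. COL4A2 (r = 0.83), LAMA4 (0.73), LAMC1 (0.68) and LAMB1 (0.61) followed, at 0.80, 0.66, 0.51 and 0.41 in that order without the same tumors, 11 and 21. LAMB1 is again the mean of its unlike probes. FN1 correlated most with the mean of 5 fibroblast and pericyte markers (S100A4, ACTA2, TAGLN, VIM and MYL9, of 14 listed), at r = 0.84, and FBLN2 at 0.73. COL1A2 correlated with COL5A1 (r = 0.84), BGN (0.84), TIMP2 (0.73), COL5A2 (0.71) and COL3A1 (0.65), at 0.84, 0.66, 0.57, 0.55 and 0.60 in that order without tumors 4 and 22. LAMA1 was the 1 gene with a positive call against the 12 leukocyte markers (r = 0.70), and LAMB2 the 1 with a negative call (r = -0.57). The LAMB2 correlation was -0.74 in Cy5 and -0.18 in Cy3, and that of LAMA1 0.78 and 0.59. LAMA1 was read by 1 probe, and its identifier was not found in the canine gene table.

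The numbers of the 28 genes with a positive adjusted call were 16 for fibroblast and pericyte, 12 for endothelium, 12 for COL1A2, 7 for osteoblast, 5 for osteoclast, 1 each for cartilage and leukocyte and 0 for skeletal muscle. Other named genes were not tested against these lists, so the numbers have no background share and are a description. Osteoblast markers include COL1A2. The genes called for osteoblast included COL5A2 (r = 0.71), BGN (0.67) and COL5A1 (0.66), and BGN was the 1 called for cartilage (r = 0.41). In the survival comparison all 5 fibroblast and pericyte markers had lower means in SS, with a median difference of -0.10, and the mean of the list ran from -0.88 to 0.42 in SS tumors and from -1.09 to 0.71 in LS tumors. Of the 5 endothelium markers 4 were lower (median -0.11), with list means of -0.34 to 0.71 in SS tumors and -0.35 to 0.43 in LS tumors. Of 15 skeletal muscle markers 14 were lower (median -0.24). The mean of the muscle list was highest in LS tumor 30 (1.55), SS tumor 7 (1.13) and LS tumor 27 (1.10). In every other tumor it was 0.16 (LS tumor 29) or less. Of 12 leukocyte markers 9 were higher (median 0.17), and all 4 osteoclast markers were higher (median 0.51). Of 5 osteoblast markers 2 were higher (median -0.18), and both cartilage markers were lower (median -0.31). By sign, 43.4% of all genes with a symbol were lower in SS. The adipocyte and red cell lists had 0 genes with probes. None of these lists had a gene called by limma in SS against LS. The part of cell mixture in the differences of the matrix genes was not tested. COL1A2 differed by -0.27 between SS and LS and COL2A1 by -0.23, with standard errors of 0.480 and 0.391.

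**Figure D5:**
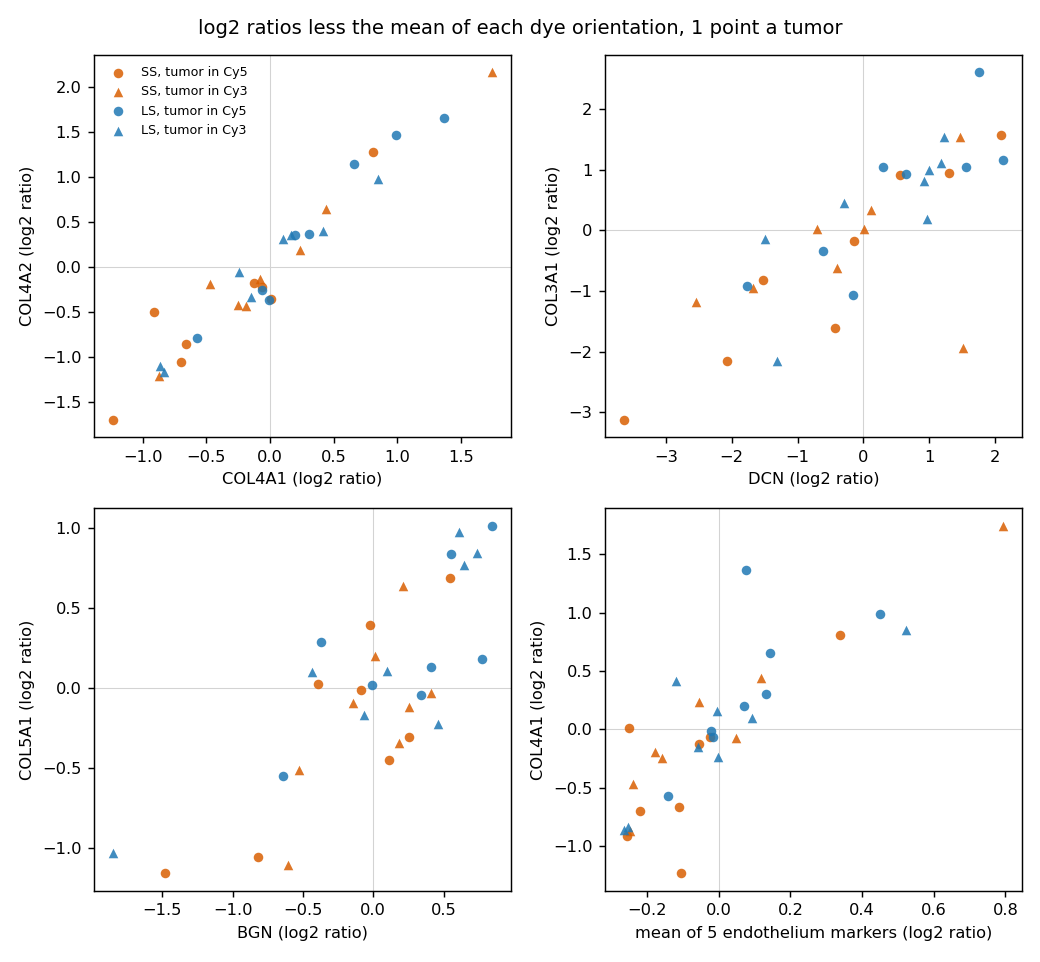
Log2 ratios less the mean of each dye orientation, 1 point a tumor: COL4A2 against COL4A1, COL3A1 against DCN, COL5A1 against BGN, and COL4A1 against the mean of 5 endothelium markers (axes in log2 units; orange SS, blue LS; circles Cy5, triangles Cy3). Both survival groups lie along 1 diagonal in each panel, with r of 0.97, 0.79, 0.78 and 0.84, and SS tumor 12 lies off it for COL3A1 (-1.94) and DCN (1.52).

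Other matrix genes, taken from lists by function, gave 0 calls in each comparison (limma). Of 17 measured proteoglycan, glycoprotein and elastic fiber genes, 13 were lower in SS, with a median difference of -0.15, and 3 had an unadjusted p under 0.05: VTN, vitronectin (-0.14, adjusted p = 0.589), MATN2, matrilin 2 (-0.97, adjusted p = 0.601), and EFEMP2, a fibulin of elastic fibers (-0.56, adjusted p = 0.622). EFEMP1, its relative, was at -0.46. Of 9 collagen modification and folding genes 4 were higher and 5 lower in SS, and P4HA1, a prolyl hydroxylase subunit, was at 0.33. With the fibroblastic component 7 of these 9 were higher (median 0.22), with P4HA2, a prolyl hydroxylase subunit, at 0.76 (unadjusted p = 0.00325, adjusted p = 0.36) and CRTAP, of the prolyl 3-hydroxylase complex, at 0.36 (unadjusted p = 0.0137, adjusted p = 0.445). Of 4 further protease genes, CTSK, cathepsin K, had the largest difference in SS, 0.45 (adjusted p = 0.858).

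A few tumors were low or high in many of the 28 genes. The mean over the genes, each less its orientation mean, was lowest in LS tumor 22 (-0.85), followed by SS tumors 2 (-0.62) and 13 (-0.57). Tumor 22 was the lowest LS tumor for 15 of the 28 genes, including COL3A1, COL5A2, BGN, FN1 and TIMP2. LS tumor 32 had the highest mean (0.69) and was the highest LS tumor for 9 genes. Without tumor 22 the median difference of SS minus LS over the 28 genes was -0.26, and with each tumor left out in turn it stayed between -0.26 and -0.15.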

How the data were processed

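The authors co-hybridized tumor and pool on 2-color arrays and flagged defective spots. They normalized by print tip with Lowess, took logarithms and reversed the sign of arrays with swapped dyes. The log2 ratios were used as deposited, with 5 values missing. The base of the logarithm is not given in the sources used here and was read as 2. The direction rests on the stated switching; mean ratios of the orientations correlated at -0.658. Groups and dyes came from the labels, and histology and survival from the study's clinical table by tumor number. Symbols came from the platform annotation. Of the 28 genes 27 were matched by identifier to the RefSeq table of the German Shepherd assembly, which changed 0 symbols, and 14482 probes had no symbol. The gene without a match was LAMA1. The number of arrays limits the precision, and each tumor was measured once. Whether probes were saturated or near background was not analysed here.

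Differences were tested with limma 3.58.1 in R 4.3.3 (lmFit, eBayes, two-sided) on 1 mean per named gene and 1 row per unnamed probe, with Benjamini-Hochberg adjustment over 19728 rows and a threshold of 0.1. The test was run on simulated data before use. Correlations used Python 3.11.15 and NumPy with 100000 permutations. Genes and lists were chosen with earlier results of these data known. Full values are given for the genes called in a comparison and, where fewer than 12 were, for up to 6 higher and 6 lower with the smallest p; of pairs, the 6 highest and 3 lowest; of other matrix lists, up to 4 genes. DCN and COL5A2 in the survival comparison were added for their spread. Significance Analysis of Microarrays, the methods' test, was not rerun here.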

Additional observations from a re-analysis of the deposited data

Results flagged for a closer look

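ADAMTS12 differed between SS and LS in opposite directions in the 2 dye orientations. SS minus LS was 0.36 in Cy5-labeled tumors and -0.31 in Cy3-labeled tumors, and the gap of 0.67 passed the interaction test (adjusted p = 0.00212, limma). The gene also had the largest dye difference of the 28, -0.79 for Cy5 minus Cy3. The part of the dye in this result was not tested.

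In 2 of 28 sets of chondroblastic tumors the highest tumor stood apart from the other 7 by more than Dixon's criterion allows, where chance flags about 1 in 20 sets. LAMB2 was at 1.52 in tumor 20, with a median of -0.25 over the 8 tumors. TIMP2 was at 1.02 in tumor 32, with a median of -0.02.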

How the results depend on the processing

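The number of the 28 genes called between SS and LS was 0 in the analysis reported and 0 with each tumor left out. It was 2 with the Cy5-labeled tumors only (LAMC1 and ADAMTS12) and 1 with the sign of the Cy3 arrays turned (ADAMTS12). With log10 survival time in place of the group and the orientation as a block it was 1 (FBN1, adjusted p = 0.0814, limma). Survival days entered that model as plain values, without censoring. For SS against LS, all rows, there were 0 calls, 69 with the orientation block, 1250 in Cy5 only, 2022 in Cy3 only, 24 with sex, chemotherapy and grade, 54 with the histological components, 1451 with log10 survival time, 2154 with the sign turned, and 0 to 1 with a tumor left out (1 without SS tumor 1 and 1 without LS tumor 30). For the fibroblastic component they were 0 to 58 with a tumor left out (58 without SS tumor 5, none of the 28 genes). The pairs with an adjusted p under 0.10 were 51 of 378 in Cy3 only, against 141 in all. Row per probe, named genes only, equal scaling, quantile normalization, array weights and COL4A1 without its deviating probe (the last chosen after seeing the data) left 0 of the 28 genes called in each of the 3 comparisons.

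Some directions turned. Between SS and LS, in Cy5 only LAMA3 was at -0.036, TIMP1 -0.14 and LAMB1 -0.31; in Cy3 only ADAMTS12 was at -0.31, LAMC1 0.088 and ADAMTS2 0.031. With log10 survival time, where a value is per log10 unit of shorter survival and so on another scale, TIMP1 was at -0.093, LAMB1 -0.096 and ADAMTS12 -0.012, and with the sign turned COL27A1 was at -0.050, LAMA3 -0.12, TIMP1 -0.22 and LAMB1 -0.36. TIMP1 was at -0.0085 with sex, chemotherapy and grade, -0.020 with equal scaling and -0.017 with array weights, where ADAMTS12 was at -0.044. With a tumor left out ADAMTS12 ranged from -0.030 to 0.090, TIMP1 from -0.088 to 0.23, LAMB1 from -0.022 to 0.12 and LAMA3 from -0.027 to 0.16. For the fibroblastic component, in Cy5 only COL5A2 was at -0.27, LAMA3 -0.062 and LOXL3 0.056; in Cy3 only ADAMTS12 was at 0.068, DCN 0.073, LAMB1 0.091 and LAMA4 0.092. LAMB1 was at 0.026 with array weights, and DCN ranged from -0.47 to 0.017 with a tumor left out. For the chondroblastic component FBLN2 was at 0.037 in Cy5 only, LAMA3 0.38 and FBLN1 0.37 in Cy3 only, and FBLN1 ranged from -0.17 to 0.028 with a tumor left out. The correlation of LAMA1 with LAMB2 was 0.014 in Cy3 only. The cause of these shifts was not tested. No paired analysis was possible because the SS and LS tumors came from different dogs.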

Other observations

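The named gene most like COL5A2 across the 32 tumors was RABEPK (r = 0.99 of 5245 other named genes), closer than COL1A2 (0.71) or COL5A1 (0.71). For FN1 it was TAF2 (r = 0.84), for LAMB2 CPE (0.93) with ALPL, alkaline phosphatase of osteoblasts, next (0.79), and for FBN1 IGFBP7 (0.84) and SERPING1 (0.84). For COL4A2, after COL4A1, the next were SPARCL1 (0.85), CAV1 (0.83), MCAM (0.82), PECAM1 (0.82) and VWF (0.82), several of them genes of endothelium. These genes were chosen after their values were seen and are a description; whether the probes named RABEPK and TAF2 carry those genes was not tested.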
